A study of Mus musculus with 8 samples.

Results

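The genes described here are the 5 subunits of the transcription factor NF-kB and 5 of its inhibitors. They were measured by RNA sequencing in regulatory T (Treg) cells of mice with both copies, or 1 copy, of Bcl11b floxed. They were chosen by name, as the rows Rela, Rel, Relb, Nfkb1, Nfkb2, Nfkbia, Nfkbie, Nfkbid, Nfkbiz and Tnfaip3 of the expression table, and all 10 were found among its 23997 genes. The deficient group had the genotype Bcl11b f/f Foxp3-YFP-Cre/+, in which both copies of the T cell transcription factor gene Bcl11b are floxed. The sufficient group had the genotype Bcl11b f/+ Foxp3-YFP-Cre/+ and so carried 1 floxed copy as well, exposed to the same Cre. All mice were of the C57BL/6 strain, all carried the Cre fusion at 1 Foxp3 allele, and no source used here gives their age. Foxp3 drives the Cre, so deletion takes place in cells that have already switched on the Treg lineage factor, and the sort for CD4+YFP+ cells of draining lymph nodes and spleen took cells that express the fusion. The comparison asked how the expression of these genes differs between Treg cells with both copies of Bcl11b floxed and Treg cells with 1 copy floxed.

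NF-kB proteins bind DNA as dimers. In a resting cell, inhibitors of the IkB family hold most dimers in the cytoplasm until kinases downstream of the T cell receptor, costimulatory receptors or TNF family receptors mark the inhibitor for destruction. Several inhibitors are themselves NF-kB target genes, which closes a feedback loop. In mice, the subunit encoded by Rel is needed for the development of Treg cells, Rela and Rel for their maintained identity, and the nuclear inhibitor family member encoded by Nfkbid helps to induce Foxp3.

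The 8 deposited libraries, 4 in each group, came down to 5. Replicates 1 and 3 of the deficient group, its replicates 2 and 4, and replicates 1 and 3 of the sufficient group lay 1.06 to 1.15 times the sampling noise of their reads apart, against 1.61 to 2.81 times for the 9 other pairs of the same group. These pairs were each counted once, by their mean, so that n is 2 deficient and 3 sufficient libraries. No label ties libraries to animals: the p-values reflect the scatter of these libraries alone, which may be technical. Depth, estimated from the steps between low values, ran from approximately 2840000 to 12500000 fragments. Bcl11b was at 24.4 and 19.0 FPKM (fragments per kilobase of transcript, scaled to the depth of the library) in the deficient libraries and from 39.1 to 46.5 FPKM in the sufficient libraries, and whether these reads come from the deleted exons was not tested. All 7 T and Treg cell markers found, of 8 listed, were well above the filter in every library, but their levels differed between the groups: they summed to 1262 and 1311 FPKM in deficient libraries against 1631 to 1824 FPKM in sufficient libraries, and 6 of 7 had log2 fold changes below 0. Foxp3 was at 153 FPKM in both deficient libraries and at 165 to 198 FPKM in the sufficient ones (limma adjusted p = 0.285). Ctla4, an inhibitory receptor of Treg cells, was the 1 marker called, at 119 and 103 FPKM in deficient libraries and 477, 375 and 274 FPKM in sufficient libraries 1+3, 2 and 4 (log2 fold change -1.72, limma adjusted p = 0.0174). Il2ra (-0.66, limma adjusted p = 0.0783) and Ikzf2 (-0.55, limma adjusted p = 0.178) had values below 0 and were not called; these 3 markers were named with their values known. Macrophage markers differed between the groups: 11 of the 12 listed were in the table, and 5 of the 10 tested were called higher, against 1.93% of all genes. They summed to 518 and 241 FPKM in the deficient libraries against 14.8 to 59.1 FPKM in the sufficient libraries. Of 5 dendritic cell markers tested, 2 were called higher (Siglech and Batf3) and 1 lower (Ccr7), against 0.697% of all genes called lower. Ccr7 aside, the 4 tested had log2 fold changes above 0, at 2.13 (H2-Ab1), 2.11 (Siglech), 1.66 (Batf3) and 0.65 (Zbtb46). Ccr7 was far above these 4 in level, at 144 FPKM in both deficient libraries and 218 to 315 FPKM in sufficient libraries. Whether its reads come from dendritic cells was not tested. No B cell, CD8 T and NK or neutrophil marker was called, but only 2 of 7, 3 of 5 and 3 of 5 listed were tested. With 2.63% of all genes called, counts of 0 among so few say little about these cells. Neutrophil markers summed to 7.17 and 30.7 FPKM in deficient libraries 1+3 and 2+4 and to 3.58, 35.7 and 5.44 FPKM in sufficient 1+3, 2 and 4.

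None of the 10 genes passed the test between deficient and sufficient libraries. This count of 0 came from limma at a Benjamini-Hochberg adjusted p under 0.05 over all 10614 genes tested, where 2.63% of all genes were called, 1.93% higher and 0.697% lower in deficient libraries. At an unadjusted p under 0.05 there were 2 of 10, Relb and Tnfaip3, against 17.8% of all genes. The libraries of the groups overlapped for each of the 10, whereas they did not overlap for 36.7% of all genes (deficient lower for 17.9%, higher for 18.9%). Fitted fold changes were below 0 for 9 of 10 genes, against 52.1% of all genes, with a median of -0.29 on the log2(FPKM + 1) scale against -0.011 over all genes. All 5 subunits and 4 of 5 inhibitors had such values, and the exception was Nfkbie. With libraries scaled to equal totals the median over all genes moved to 0.18, the median of the 10 genes was -0.083, and 7 of 10 lay below 0, with Rela, Nfkb1 and Nfkbie above it. Because the values are bulk measurements, fewer cells that express a gene and less RNA per cell cannot be told apart.

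Promoter windows from RefSeq (GRCm38.p6) are shown for Nfkbia, Tnfaip3 and Rel, because the first of these encodes the classical feedback inhibitor and the other two had the widest spread between libraries. Each run is the 250 bases before a RefSeq start of the gene, 5′ to 3′ on the gene's strand. Capitals mark matches to a form of the site that NF-kB binds, GGG followed by any 3 bases and TTCC. Matches were read on either strand (GGAA, any 3 bases, CCC in the other direction).
Nfkbia: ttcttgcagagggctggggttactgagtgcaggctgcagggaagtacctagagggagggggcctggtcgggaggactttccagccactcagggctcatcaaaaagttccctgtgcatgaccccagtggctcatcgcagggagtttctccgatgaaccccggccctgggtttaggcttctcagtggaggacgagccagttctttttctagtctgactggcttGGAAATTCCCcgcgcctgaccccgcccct
Tnfaip3: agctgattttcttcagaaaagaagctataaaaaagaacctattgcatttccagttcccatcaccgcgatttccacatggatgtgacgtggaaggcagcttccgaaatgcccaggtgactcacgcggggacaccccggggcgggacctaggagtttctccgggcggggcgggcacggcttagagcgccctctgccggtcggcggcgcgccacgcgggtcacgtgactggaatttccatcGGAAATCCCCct
Rel: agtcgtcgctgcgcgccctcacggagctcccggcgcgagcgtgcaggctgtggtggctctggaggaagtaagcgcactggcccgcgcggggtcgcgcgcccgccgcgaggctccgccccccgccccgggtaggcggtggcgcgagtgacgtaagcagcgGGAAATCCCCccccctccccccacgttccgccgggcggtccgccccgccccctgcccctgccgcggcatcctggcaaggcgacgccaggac
These windows lie at chr12:55492648-55492897, chr10:19015411-19015660 and chr11:23770970-23771219, all on the minus strand. The matches begin 29 bases before the RefSeq start in Nfkbia, 12 in Tnfaip3 and 91 in Rel. In GENCODE, Tnfaip3 begins at 19015657 on this strand, so most of its run lies inside the gene as annotated there.

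RefSeq windows, from 250 bases before to 50 after a start, were found for 7 of the 10 genes, 12 windows in all, and 6 of the 7 genes held at least 1 match. Among all 27025 genes of the table of windows, 6.31% had a match, and among its 32851 windows 5.6% had one. A gene with more windows has more room for a match, and these shares were not matched for that. The stricter motif GGGA, any 2 bases and TTCC, whose matches are all also matches of the first, was found in Nfkbia and Nfkb2, against 1.63% of all genes. The match in the Nfkbia window, GGAAATTCCC, is of this stricter kind. Nfkb2, with 3 listed starts, held 5 matches, among them GGGACTTTCC 10 bases after its second start, and the third window holds the same letters because the windows overlap. Nfkbie held GGGGGATTCC, Nfkbid held GGAATTCCCC before its second start, and Rela held none in its window. A match describes these letters only and does not show that a protein is bound there.

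Rela encodes the transactivating subunit of the most common dimer of NF-kB. It lies on chromosome 19, 5637483 to 5648130, in GRCm38 and, in order of replicate number, measured 66.3, 61.5, 65.4 and 60.5 FPKM in the 4 deficient replicates and 67.2, 75.2, 63.4 and 73.1 FPKM in the 4 sufficient ones. The deficient libraries sat at the low end of a narrow range and overlapped with sufficient replicates 1 and 3. The deficient mean was 63.4 ± 3.43 FPKM (SD, n = 2), against 71.2 ± 5.23 FPKM for sufficient libraries (SD, n = 3), a log2 fold change of -0.16 (SE 0.11, limma adjusted p = 0.484). The 95% confidence interval of the difference, -0.42 to 0.093, excludes a 2-fold change in either direction, before any adjustment for the number of genes. With equal totals the log2 value was 0.047 (limma adjusted p = 0.857).

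Rel encodes the subunit that lymphocytes induce on activation (chromosome 11, 23736847 to 23770970). In the 4 deficient replicates it measured 23.2, 18.6, 24.8 and 16.6 FPKM, and in the 4 sufficient ones it measured 22.2, 58.4, 26.0 and 21.1 FPKM. Sufficient replicate 2 stood apart from all the others, which otherwise overlapped between the groups. The means of 20.8 ± 4.54 FPKM in deficient libraries and 34.6 ± 20.7 FPKM in sufficient ones (SD, n = 2 and 3) therefore differ mainly through 1 library. In log2 terms the difference was -0.57 (SE 0.40, limma adjusted p = 0.507), and without sufficient replicate 2 it was -0.13 (limma adjusted p = 0.731). Over the 3 sufficient libraries the highest level of Rel was 2.77 times the lowest, and 1.35% of all genes tested had as wide a range there. Relative to Rela in the same library, Rel stood at 0.364 and 0.288 in deficient libraries and at 0.369, 0.777 and 0.289 in sufficient libraries 1+3, 2 and 4.

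Relb encodes the subunit of the alternative pathway, which pairs with the product of Nfkb2 (chromosome 7, 19606217 to 19629438). It measured 26.8, 22.7, 26.8 and 20.2 FPKM in the 4 deficient replicates and 27.4, 36.9, 26.1 and 36.9 FPKM in the 4 sufficient ones. Sufficient replicates 2 and 4 lay above every deficient value, while sufficient replicates 1 and 3 lay level with deficient replicates 1 and 3. Relb had the lowest adjusted p of the 10 genes, at means of 24.1 ± 3.80 FPKM in deficient libraries and 33.5 ± 5.83 FPKM in sufficient ones (SD, n = 2 and 3) and a log2 fold change of -0.45 (SE 0.17, limma adjusted p = 0.243). Permuting the 5 libraries between the groups gave an exact two-sided p of 0.3, where the smallest that 10 assignments allow is 0.1. The 5 genes whose centred log2 levels lay closest to those of Relb over the 5 libraries were Pacsin1, Mettl1, 1700097N02Rik, Dtx1 and 1810055G02Rik. Their root mean square differences ran from 0.034 to 0.053. None of them was called (limma adjusted p from 0.2002 to 0.250), which largely follows from picking them for values like those of Relb.

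Nfkb1 encodes the precursor of the DNA-binding partner of Rela and Rel (chromosome 3, 135584655 to 135691547). Its levels were 107, 120.2, 104 and 112 FPKM in the 4 deficient replicates and 123, 122, 121 and 111 FPKM in the 4 sufficient ones. These were the most even values of the 10 genes, the highest independent library at 1.16 times the lowest. The fitted log2 difference was -0.098 (SE 0.11, limma adjusted p = 0.677, 95% confidence interval -0.35 to 0.15), and its sign turned with equal totals (0.11) and with equal upper quartiles (0.011).

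Nfkb2 encodes the precursor that serves as an inhibitor until it is processed into the partner of Relb (chromosome 19, 46304320 to 46312385). It measured 46.6, 38.8, 45.4 and 38.1 FPKM in the 4 deficient replicates and 44.6, 58.5, 40.7 and 49.2 FPKM in the 4 sufficient ones, with the groups overlapping. In log2 terms the difference was -0.24 (SE 0.15, limma adjusted p = 0.476). Its end overlaps that of Psd on the opposite strand, and no source used here says whether the authors' quantification used strand. The ratio of Nfkb2 to Nfkb1 was 0.438 and 0.331 in deficient libraries and 0.351 to 0.478 in sufficient libraries.

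**Figure D1:**
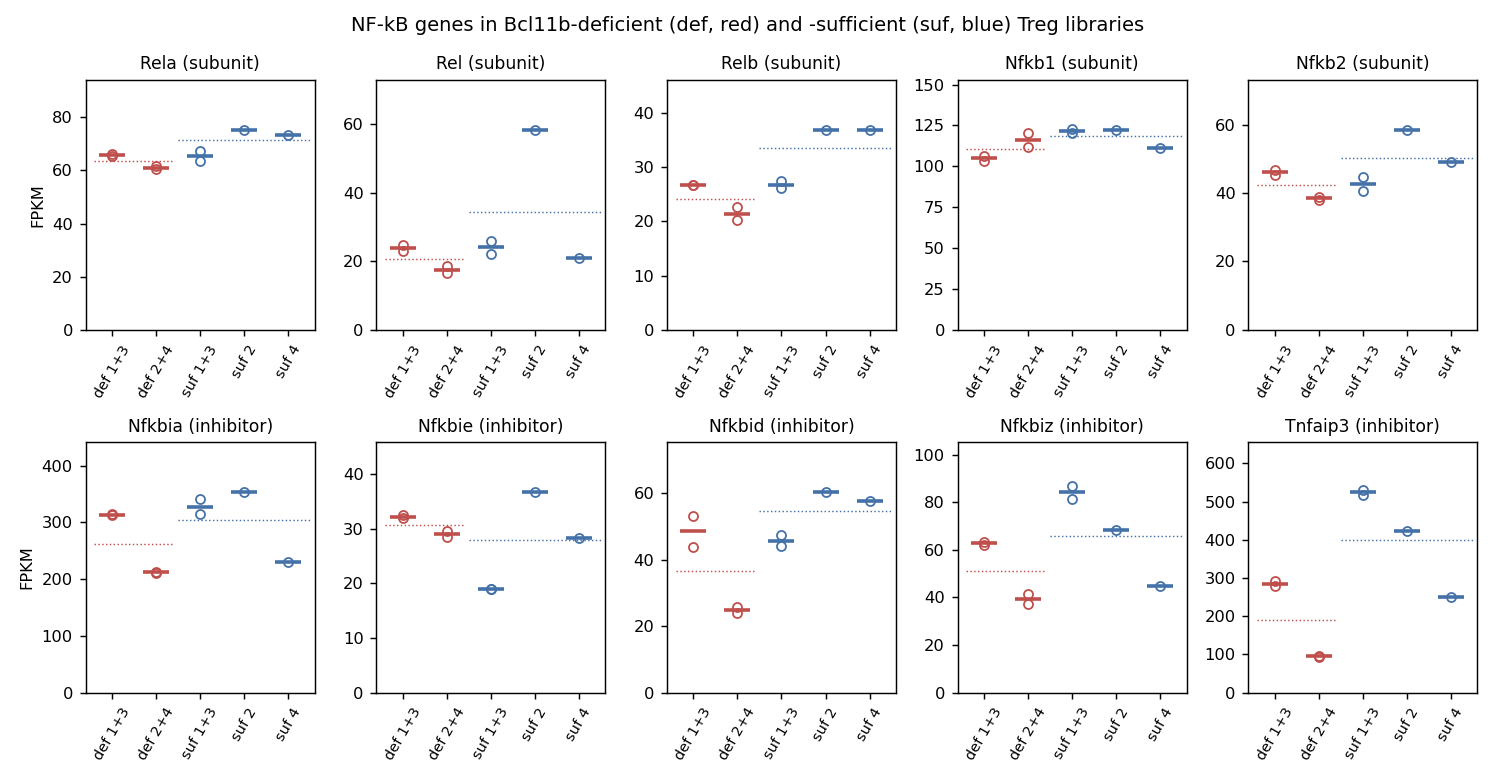
FPKM of the 5 subunit genes (top row) and 5 inhibitor genes (bottom row) in each independent library, with deficient libraries (red) left of sufficient libraries (blue) and replicate numbers on the horizontal axis. Open circles are deposited replicates, thick bars the value of each independent library and dotted lines the group means. Rel at 58.4 FPKM in sufficient replicate 2 and Tnfaip3 between 93.3 and 530.0 FPKM show the widest spread.

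Among the inhibitors, and among all 10 genes, Tnfaip3 varied most between libraries, with 5.52 times its lowest level in its highest library. Tnfaip3 encodes the ubiquitin-editing enzyme that ends NF-kB signalling downstream of TNF and Toll-like receptors and is itself an NF-kB target (chromosome 10, 19000910 to 19015657). It measured 279, 96.4, 292 and 93.3 FPKM in the 4 deficient replicates, against 530.0, 424, 518 and 249 FPKM in the 4 sufficient ones. Deficient replicates 2 and 4 were lowest and sufficient replicates 1 and 3 highest, but sufficient replicate 4 lay below deficient replicates 1 and 3, so the groups overlapped. Means were 190.0 ± 135 FPKM in deficient libraries and 399 ± 139 FPKM in sufficient ones (SD, n = 2 and 3), and the deficient mean was 47.6% of the sufficient one. The log2 fold change of -1.21 (SE 0.48) was the most negative of the 10 genes, with a 95% confidence interval from -2.33 to -0.084, and did not pass (limma adjusted p = 0.252). Its exact permutation p was 0.3, two-sided. The difference depended on which deficient library was kept: without deficient replicates 1 and 3 the log2 value was -1.995 (limma adjusted p = 0.166), and without deficient replicates 2 and 4 it was -0.42 (limma adjusted p = 0.696).

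Nfkbia encodes IkB-alpha, the inhibitor that is destroyed and resynthesized within each round of NF-kB activation (chromosome 12, 55489410 to 55492647). It measured 313, 213, 314 and 210.5 FPKM in the 4 deficient replicates and 340.4, 353, 315 and 231 FPKM in the 4 sufficient ones. One library in each group was low, namely deficient 2+4 and sufficient 4, and the others lay between 313 and 353 FPKM. The fitted log2 difference was -0.21 (SE 0.23, limma adjusted p = 0.678), and without deficient replicates 2 and 4 it was 0.070 (limma adjusted p = 0.936). With equal totals it was -0.00047.

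The ratio of Tnfaip3 to Nfkbia, which no scaling of a library changes, did not overlap between the groups. It was 0.909 and 0.448 in the deficient libraries and 1.60, 1.20 and 1.08 in sufficient libraries 1+3, 2 and 4. The exact permutation test gave p = 0.1, the smallest it can give, and the value adjusted over the 12 ratios and sums computed was 0.514. By level, 36.7% of all genes did not overlap, and no such share was computed over ratios. The ratio of Relb to Rela did not overlap either (exact permutation p = 0.2). It was 0.407 and 0.351 in the deficient libraries and 0.410, 0.490 and 0.505 in sufficient libraries 1+3, 2 and 4. The 5 inhibitors summed to 742 and 400.0 FPKM in deficient libraries and to 1000, 941 and 611 FPKM in sufficient libraries, while the 5 subunits summed to 268 and 255 FPKM in deficient libraries and to 281, 351 and 291 FPKM in sufficient ones (exact permutation p = 0.3 and 0.2). Inhibitors over subunits stood at 2.77 and 1.57 in deficient and at 3.57, 2.68 and 2.10 in sufficient libraries, an overlap.

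Nfkbid encodes a nuclear member of the IkB family that binds promoters together with NF-kB dimers (chromosome 7, 30421732 to 30428746). It measured 53.3, 25.8, 43.8 and 23.9 FPKM in the 4 deficient replicates and 44.0, 60.2, 47.5 and 57.7 FPKM in the 4 sufficient ones. Deficient replicates 2 and 4 lay well below the rest, and the mean of deficient replicates 1 and 3, 48.6 FPKM, lay within the range of the sufficient libraries. The fitted log2 difference was -0.62 (SE 0.27, limma adjusted p = 0.280), with an unadjusted p of 0.0501. Without deficient replicates 2 and 4 it was -0.16 (limma adjusted p = 0.763), and without deficient replicates 1 and 3 it was -1.09 (limma adjusted p = 0.132).

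Nfkbiz encodes IkB-zeta, another nuclear member of the family, induced in myeloid and lymphoid cells (chromosome 16, 55811375 to 55838899). Its values were 63.3, 37.4, 62.1 and 41.5 FPKM in the 4 deficient replicates and 81.5, 68.2, 86.7 and 44.8 FPKM in the 4 sufficient ones. As with Nfkbia, deficient 2+4 and sufficient 4 were the low libraries, and the groups overlapped. The fitted log2 difference was -0.35 (SE 0.29, limma adjusted p = 0.576), and without deficient replicates 2 and 4 it was -0.020 (limma adjusted p = 0.985).

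Nfkbie encodes IkB-epsilon, a cytoplasmic inhibitor (chromosome 17, 45555703 to 45563169), and was the one gene of the 10 with a positive fold change. It measured 32.5, 29.6, 31.8 and 28.5 FPKM in the 4 deficient replicates and 19.0, 36.6, 18.9 and 28.2 FPKM in the 4 sufficient ones. The deficient values all lay inside the sufficient range, whose low end was set by sufficient replicates 1 and 3. The fitted log2 difference was 0.17 (SE 0.24, limma adjusted p = 0.755), and without sufficient replicates 1 and 3 it was -0.071 (limma adjusted p = 0.877).

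**Figure D2:**
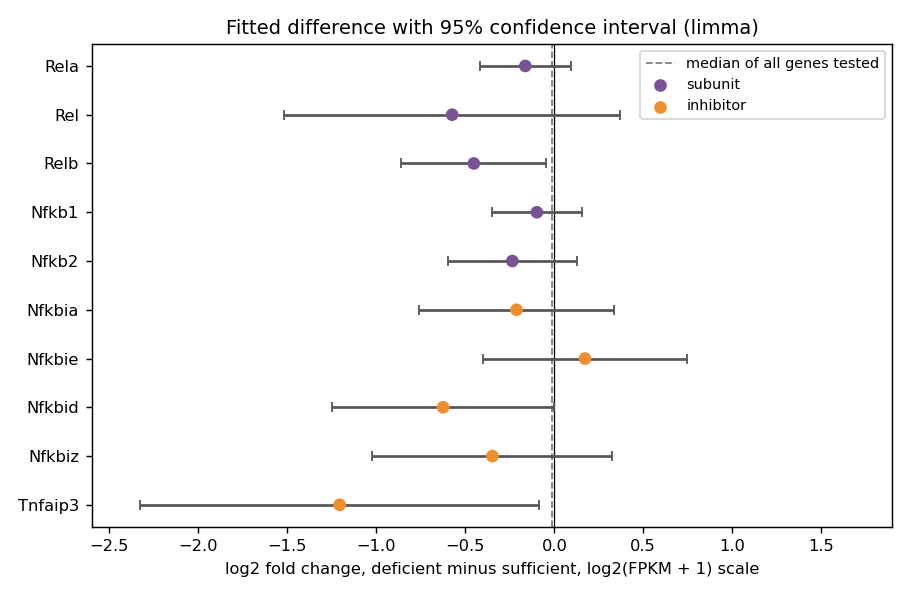
Difference of each gene in log2(FPKM + 1), deficient minus sufficient (horizontal axis), with subunits in purple and inhibitors in orange and bars for the 95% confidence interval from limma, unadjusted for the number of genes. The dashed line is the median of all genes tested, -0.011. Only the intervals of Relb and Tnfaip3 lie wholly below 0, and neither gene passed adjustment.

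Several of the 10 genes varied widely within a group. Between the 2 deficient libraries Tnfaip3 differed 3.01-fold, with deficient 1+3 above deficient 2+4, and 0.509% of all genes tested differed as much in either direction on the log2(FPKM + 1) scale. Nfkbid differed 1.95-fold, Nfkbiz 1.59-fold and Nfkbia 1.48-fold the same way, with 1.68%, 3.98% and 5.65% of all genes differing as much. For Rela (1.08-fold) and Nfkb1 (0.905-fold) the difference was matched or exceeded by 63.7% and 53.5% of all genes. Replicates averaged as 1 library had been picked for their close agreement over many genes. For Tnfaip3 the difference was 4.45% for deficient replicates 1 and 3, 3.38% for deficient 2 and 4 and 2.35% for sufficient 1 and 3. Some of the other genes differed more. Nfkbid differed by 21.5% between deficient replicates 1 and 3, and Rel by 14.7% between sufficient replicates 1 and 3. Of the 10 genes, 8 were lowest in deficient 2+4, where 19.7% of all genes were lowest, and 7 were highest in sufficient 2, where 14.2% of all genes were highest. The macrophage marker sum was also higher in deficient 1+3, at 518 FPKM, than in deficient 2+4, at 241 FPKM. Across all libraries this sum was lowest in sufficient 1+3, at 14.8 FPKM, and Tnfaip3 was highest there, at 524 FPKM. The part of these markers in the values of the 10 genes was not tested.

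**Figure D3:**
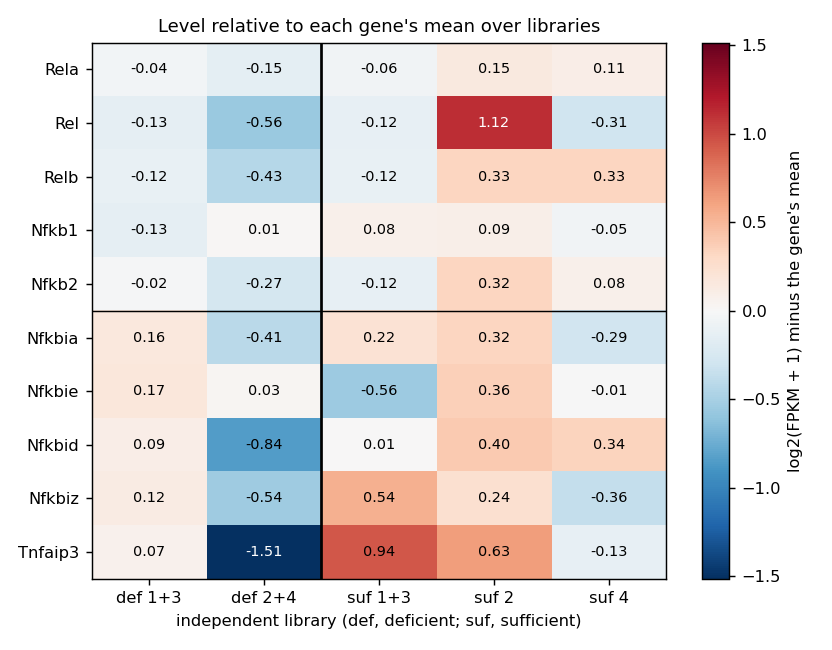
Log2(FPKM + 1) of each gene (rows, subunits above the line and inhibitors below it) minus its mean over the 5 independent libraries (columns, deficient left of the black line and sufficient right of it), with the value printed in each cell. Tnfaip3, Nfkbid, Rel and Nfkbiz have the most negative values in deficient 2+4, and Rel stands out in sufficient 2, where it reached 58.4 FPKM.

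The 10 genes differed widely in level, which FPKM allows to be compared because it is set per length of transcript. Tnfaip3 and Nfkbia were the most abundant, with means of 315 and 287 FPKM over the 5 libraries, above 98.2% and 98.1% of all genes tested. Neither was consistently above the other, since Tnfaip3 was higher in 3 of 5 libraries, all of them sufficient. Nfkb1 followed at 115 FPKM and lay below Nfkbia and above Rela (68.1 FPKM) in 5 of 5 libraries. Nfkbiz (59.9 FPKM), Nfkbid (47.4 FPKM) and Nfkb2 (46.9 FPKM) came next, with each above the following one in 4 of 5 libraries. Nfkb2 was above Relb in 5 of 5 libraries. Relb, Rel and Nfkbie had similar means, at 29.7, 29.1 and 29.0 FPKM, and that of Rel was raised by sufficient 2, at 58.4 FPKM. Relb was above Rel in 4 of 5 libraries, and Rel was above Nfkbie in 2 of 5.

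Genes upstream of the 10 were lower in deficient libraries at 2 receptors of the TNF receptor family. A list of 12 receptors that feed NF-kB had 9 members that were tested, and 2 of these fell while 0 rose. Their median was -0.48 on the log2 scale, against -0.011 over all genes, of which 0.697% were called lower. Tnfrsf4, a costimulatory receptor, measured 60.5 and 59.6 FPKM in deficient libraries 1+3 and 2+4, against 161, 219 and 190 FPKM in sufficient libraries 1+3, 2 and 4 (log2 fold change -1.64, SE 0.14, limma adjusted p = 0.00800). Tnfrsf9, another costimulatory receptor, measured 35.4 and 38.2 FPKM in deficient libraries, against 61.0, 70.4 and 66.5 FPKM in sufficient libraries (log2 fold change -0.82, SE 0.11, limma adjusted p = 0.0178). Both receptors were lower in deficient libraries without overlap, as were 17.9% of all genes. Tnfrsf4 and Tnfrsf9 varied less within each group than Tnfaip3. Leaving out sufficient replicate 2 took the count to 1, and leaving out deficient replicates 1 and 3, or 2 and 4, took it to 0, with a single deficient library in the fit.

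Adaptors, kinases and ubiquitin ligases between the receptors and NF-kB did not pass, with 0 of 23 called by limma, 4 of 23 at an unadjusted p under 0.05 and a median log2 fold change of 0.030. These counts are near the shares over all genes, 2.63% called and 17.8% at an unadjusted p under 0.05. Bcl10, an adaptor of the T cell receptor pathway, was at 34.2 and 32.5 FPKM in deficient libraries and 42.2, 42.2 and 41.9 FPKM in sufficient libraries (log2 fold change -0.33, limma adjusted p = 0.139). Traf5, an adaptor of TNF family receptors, was at 22.5 and 20.8 FPKM in deficient libraries and 25.3, 29.6 and 28.6 FPKM in sufficient libraries (log2 fold change -0.35, limma adjusted p = 0.180). Ikbkb, the kinase that marks IkB-alpha for destruction and chosen with its values known, was at 74.9 and 75.3 FPKM in deficient libraries and 72.2, 74.4 and 74.8 FPKM in sufficient ones, nearly level across all 5.

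Inhibitors outside the 10 genes gave 0 of 12 called by limma and 2 of 12 at an unadjusted p under 0.05 (median log2 fold change -0.050), also near the 2.63% and 17.8% of all genes. Zc3h12a, a ribonuclease that degrades inflammatory transcripts, measured 30.3 and 18.7 FPKM in deficient libraries and 37.1, 51.2 and 33.1 FPKM in sufficient libraries (log2 fold change -0.71, limma adjusted p = 0.192). Otud7b, a deubiquitinating enzyme, measured 10.3 FPKM in both deficient libraries and 7.94, 8.05 and 8.48 FPKM in sufficient libraries (log2 fold change 0.31, limma adjusted p = 0.222).

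Known NF-kB target genes gave 0 of 21 called by limma, from a list of 25, with 8 of 21 at an unadjusted p under 0.05, against 2.63% and 17.8% of all genes. Their median log2 fold change was -0.25, and 17 of 21 had values below 0, against 52.1% of all genes. Vcam1, an adhesion molecule that was also on the list of macrophage markers, measured 47.0 and 23.3 FPKM in deficient libraries and 1.14, 5.50 and 7.13 FPKM in sufficient libraries (log2 fold change 2.82, SE 0.56, limma adjusted p = 0.0535). Bcl2a1b, a survival gene with near-identical copies among which reads may be split, measured 36.0 and 44.6 FPKM in deficient libraries and 56.7, 75.2 and 81.8 FPKM in sufficient libraries (log2 fold change -0.80, SE 0.18, limma adjusted p = 0.0711). Cd83 is a surface protein, chosen here with its values known. Its levels were 16.4 and 15.2 FPKM in deficient libraries and 25.8, 80.2 and 45.1 FPKM in sufficient libraries (log2 fold change -1.47, SE 0.40, limma adjusted p = 0.124). As with Rel, its highest value was in sufficient replicate 2.

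**Figure D4:**
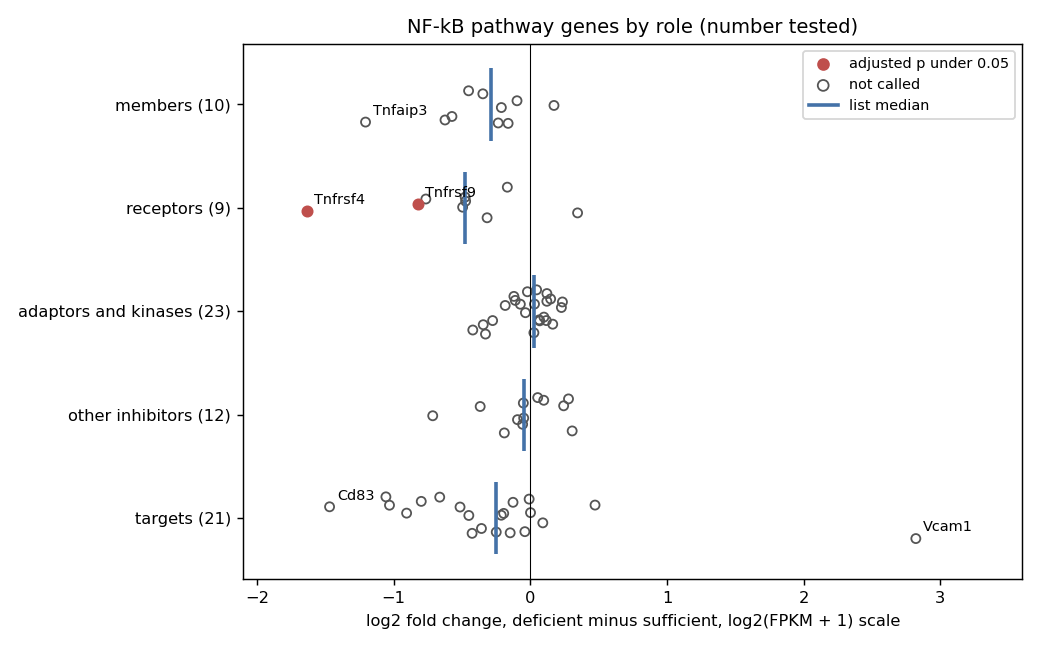
Difference in log2(FPKM + 1), deficient minus sufficient (horizontal axis), of each tested gene by its role in the NF-kB pathway, with the number tested in brackets. Filled red points passed an adjusted p under 0.05, open points did not, and blue bars are list medians. Tnfrsf4 and Tnfrsf9 are the 2 filled points.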

How the data were processed

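Sorted cells were sequenced from a stranded total RNA kit, per the labels' protocols. The authors deposited FPKM, as the name of their table and its values show. Per the submitters' processing notes, the tools were FastQC, STAR 2.5.1, Trim Galore 0.4.2, cutadapt 1.12, Cuffdiff 2.2.1 and Cuffnorm 2.2.1, with mm10. No source used here gives their settings, the annotation or any scaling between libraries. FPKM is relative within a library: total FPKM was 474416 to 495435 in deficient and 509592 to 613276 in sufficient libraries. Of 16 value columns, 8 matched no sample and were not used.

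Replicates were averaged where, at 150 to 500 estimated reads, their spread was under 1.5 times the sampling noise. The filter kept genes whose mean over the 5 libraries reached 1 FPKM. They were tested as log2(FPKM + 1) in limma 3.58.1 (R 4.3.3), fitting group alone and letting the variance follow the mean, two-sided, adjusted over all genes tested. The fold change understates that of low genes. FPKM is not a count, so no count model or counting interval was used, and the depth is an approximation. The fit and the averaging rule were checked on simulated data. Genes, lists and the averaging rule were chosen with earlier results of these data known. All 10 members were named, with Bcl11b, Foxp3, up to 6 called genes of each pathway list or else its 2 genes of lowest adjusted p, and the 5 genes whose centred log2 levels lay closest to those of the member with the lowest adjusted p. Coordinates are from GENCODE M21 (GRCm38).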

Additional observations from a re-analysis of the deposited data

How the results depend on the processing

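Over 23 alternatives, 223 fold changes of the 10 genes kept their direction and their side of the threshold, 5 turned and 2 came to be called. These were Tnfaip3, called with the replicate number as a block (-1.32, limma adjusted p = 0.0101, over all 8 columns, and -1.38, adjusted p = 0.0492, over the independent libraries with replicates 1 and 3 against 2 and 4), Rela with equal totals (0.047), Nfkb1 with equal totals (0.11) and equal upper quartiles (0.011), and Nfkbia and Nfkbie when a library was left out (-0.50 to 0.070 and -0.071 to 0.38). The replicate numbers do not pair the samples by the labels, and deviations of equal numbers correlated at 0.0275, 0.0581, 0.126 and 0.0906 for replicates 1 to 4, which were not all above 0.1. Deficient replicate 1 correlated more with sufficient replicate 2 (0.13) than with its own number. With the block, 1 of the 10 genes was called. Among all genes 1418 of 10612 tested were called over 8 columns, and 283 of 10614 over independent libraries. Fits over 8 columns count the near-identical replicates as independent, so their p-values are too small. Receptors, adaptors and targets then counted 4, 2 and 8 calls over 8 columns, and targets 2 over independent libraries.

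With 8 columns as separate libraries, where the same limit holds, 1851 of 10612 genes tested were called, against 279. Receptors, adaptors, other inhibitors and targets then counted 4, 6, 2 and 6. By limma, 0 of the 10 genes were called, and 3 had an unadjusted p under 0.05. The total was 27 without a filter (receptors 0), 113 with a filter at 5 FPKM and 182 with a pseudocount of 0.1. Receptors counted 1 with equal totals, and targets counted 1 with a pseudocount of 5, equal totals or equal upper quartiles. Of all calls 73.5% were higher in deficient libraries, against 91.9% with equal totals, 85.3% with equal upper quartiles and 54.2% over 8 columns. With a library left out, 8 to 297 genes, 0 to 2 receptors and 0 to 3 targets were called. The causes were not tested. With 2 deficient and 3 sufficient libraries, the width of the interval of Tnfaip3, from -2.33 to -0.084, shows how little the design resolves for genes that vary within a group.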

Other observations

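Junb, a transcription factor gene that cells induce within minutes of stimulation, was the gene whose profile over the 5 libraries lay closest to that of Tnfaip3, in a search made after the values were seen. It measured 653 and 238 FPKM in deficient libraries 1+3 and 2+4 and 1184, 925 and 504 FPKM in sufficient libraries 1+3, 2 and 4, with a root mean square difference of 0.098 between centred log2 levels. Gadd45b, a stress-induced gene and NF-kB target, came next (0.24), at 44.8 and 20.7 FPKM in deficient libraries and 71.3, 71.9 and 38.1 FPKM in sufficient libraries. Neither was called (limma adjusted p = 0.313 and 0.267), which largely follows from picking them for values like those of Tnfaip3.

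A list of 17 immediate-early genes, added after the values were seen, summed to 3797 and 1906 FPKM in deficient libraries 1+3 and 2+4 and to 4568, 2841 and 2214.5 FPKM in sufficient libraries 1+3, 2 and 4. Deficient 2+4 and sufficient 4 were thus the lowest in their groups, as for Tnfaip3, Nfkbia and Nfkbiz. By limma, 0 of 16 tested genes of the list were called and 1 had an unadjusted p under 0.05. Over all genes tested these shares were 2.63% and 17.8%. Nr4a1 is an immediate-early gene of T cell receptor signalling, chosen with its values known. It measured 260.3 and 79.5 FPKM in deficient libraries and 271, 197 and 175 FPKM in sufficient libraries. Egr1 (70.8, 61.3 and 83.0 FPKM in sufficient 1+3, 2 and 4) and Egr2 (9.34, 10.6 and 17.0 FPKM) were instead highest in sufficient 4. Of the 16 tested, 12 had log2 fold changes below 0, against 52.1% of all genes. The 4 above it were Fos (0.38), Fosb (0.51), Jun (0.24) and Zfp36 (0.46). The part of these genes' shared variation in the values of Tnfaip3 was not tested.

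For Rel, the closest profiles were those of Rln3 and Zc3h12c, at root mean square differences of 0.14 and 0.16. Rln3 measured 14.6 and 10.7 FPKM in deficient libraries and 19.4, 42.7 and 14.4 FPKM in sufficient libraries 1+3, 2 and 4, and so was also highest in sufficient 2. Zc3h12c, close to the filter at 1 FPKM, measured 0.793 and 0.485 FPKM in deficient libraries and 0.908, 2.45 and 0.670 FPKM in sufficient libraries.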
